A study of Mus musculus and Homo sapiens with 60 samples.

Results

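The promoters of 5 genes of glucose uptake and glycolysis, SLC2A1, GAPDH, ENO1, PKM and LDHA, were described in the human B-cell line P493-6. They were chosen by name and by their start sites, not by a measured value, though with earlier results of these data known. Every deposited peak that overlapped the 2.5 kb on either side of a start site was taken. All 5 genes could be placed, and 59 of the 185318 peaks in the 9 P493-6 lists lay in their windows. On hg19 the start sites were chromosome 1, 43424847 for SLC2A1, chromosome 12, 6643585 for GAPDH, chromosome 1, 8939151 for ENO1, chromosome 15, 72523727 for PKM and chromosome 11, 18415936 for LDHA. As textbook background, GAPDH and LDHA are read towards higher coordinates and the other 3 towards lower ones, and upstream and downstream below follow that direction.

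Glycolysis turns glucose into pyruvate in the cytoplasm, and growing cells often reduce much of that pyruvate to lactate. SLC2A1 encodes GLUT1, a glucose carrier of the plasma membrane. GAPDH oxidises glyceraldehyde 3-phosphate, ENO1 makes phosphoenolpyruvate, PKM encodes the muscle-type pyruvate kinases that make pyruvate, and LDHA converts pyruvate to lactate. Myc is a transcription factor that binds DNA together with Max, and LDHA is among its long-known target genes.

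The study mapped Myc, RNA polymerase II (RNAPII) and histone marks by chromatin immunoprecipitation followed by sequencing (ChIP-seq) in mouse and human cells, with 60 samples, 53 of them with a peak list. P493-6 cells, described in the labels as a B-cell lymphoma line, carry a Myc transgene that tetracycline represses, and OHT (4-hydroxytamoxifen) activates their endogenous Myc. As background, the line derives from B cells immortalised with Epstein-Barr virus, and OHT acts there on the viral protein EBNA2 fused to an estrogen receptor domain, so low Myc cells also differ from 0 h cells in EBNA2 activity. All cells grew in RPMI with tetracycline-free serum. The groups were cells with 0.2 µg/mL tetracycline (0 h), cells with the same tetracycline and 200 nM OHT (low Myc), untreated cells in which the transgene was on (high Myc), and cells held in tetracycline for 72 h and then released into medium without it for 1 h or 24 h. The labels do not say how long the 0 h and low Myc cells had been in tetracycline. Myc was mapped in all 5 conditions with the antibody N262, RNAPII at 0 h and 24 h, and H3K4me3 and H3K27ac at 24 h.

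Each list came from 1 library, so no difference below could be set against a spread between replicates and none was tested. Myc had 791 peaks at 0 h, 4309 at low Myc, 8666 at 1 h, 18257 at 24 h and 26146 at high Myc. RNAPII had 13026 peaks at 0 h and 24613 at 24 h, H3K4me3 had 29953 and H3K27ac 59557. Peak lists do not give the read depth, so a longer list can also reflect a deeper or better enriched library, and that part was not tested. The score of a peak is the authors' own value from the peak caller, rising with the significance of the peak, and it was used only to rank peaks within a list. A rank of 1 is the highest score. Ranks in lists of different length cannot be compared, so they tell neither a change between conditions nor its absence. The cells' lineage was not checked against marker genes, and the other genes of glycolysis and the promoter sequences were not analysed here.

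The number of glycolysis promoters with Myc rose with the number of Myc peaks from 0 h to low Myc and to 1 h. It was 5 of 5 at 1 h and in the longer 24 h and high Myc lists. One of the 5 promoters, ENO1, had a Myc peak at 0 h, where 1.35% of all promoter-like windows had one. These windows are the 2.5 kb on either side of the centre of each of the 29953 H3K4me3 peaks, H3K4me3 being a mark of active promoters. At low Myc 3 of 5 promoters had a peak (LDHA, ENO1 and GAPDH), against 10.9% of the windows. All 5 had one at 1 h, 24 h and high Myc, against 23.1%, 42.2% and 53.9%. Windows at the 9819 H3K4me3 peaks with a score of at least 3100, the score that the H3K4me3 peaks of all 5 genes reached, had a Myc peak more often, at 3.22%, 21.7%, 45.9%, 71.1% and 88.0% in the same order. Myc at 5 of 5 promoters at high Myc was thus near the share of such windows and says little about these genes in particular.

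**Figure D1:**
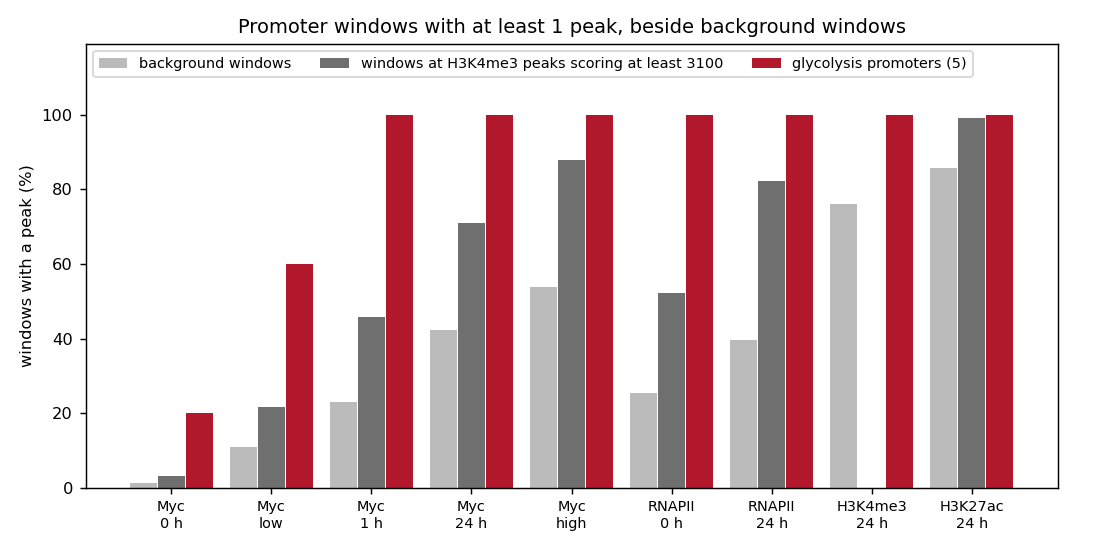
Share of windows with at least 1 peak (y axis, percent) in each of the 9 P493-6 lists (x axis). Light grey bars are windows at all 29953 H3K4me3 peaks (for H3K4me3 itself, at RNAPII 0 h peaks), dark grey bars are windows at the 9819 H3K4me3 peaks scoring at least 3100, and red bars are the 5 glycolysis promoters, of which 1 had Myc at 0 h, 3 at low Myc and 5 in each other list.

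The order in which the promoters appeared in the lists was read from the same windows. All 4 promoters without Myc at 0 h had it at 1 h, against 22.1% of the H3K4me3-centred windows without Myc at 0 h. PKM and SLC2A1, without Myc at low Myc, both had it at high Myc, against 48.4% of windows. Myc at 1 h, 24 h and high Myc together was found at 5 of 5 promoters and in 21.1% of windows. Myc in these lists and at low Myc was found at 3 of 5 and in 8.84%. These shares are over all H3K4me3-centred windows, and none is given for windows at H3K4me3 peaks scoring at least 3100. Such windows had Myc more often, in 45.9% at 1 h, 71.1% at 24 h and 88.0% at high Myc. The shares above are thus not matched to the 5 genes. The nearest 0 h Myc peak lay 33854 bp from the GAPDH start site, 487201 bp from that of PKM, 1816422 bp from that of SLC2A1 and 14189358 bp from that of LDHA.

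**Figure D2:**
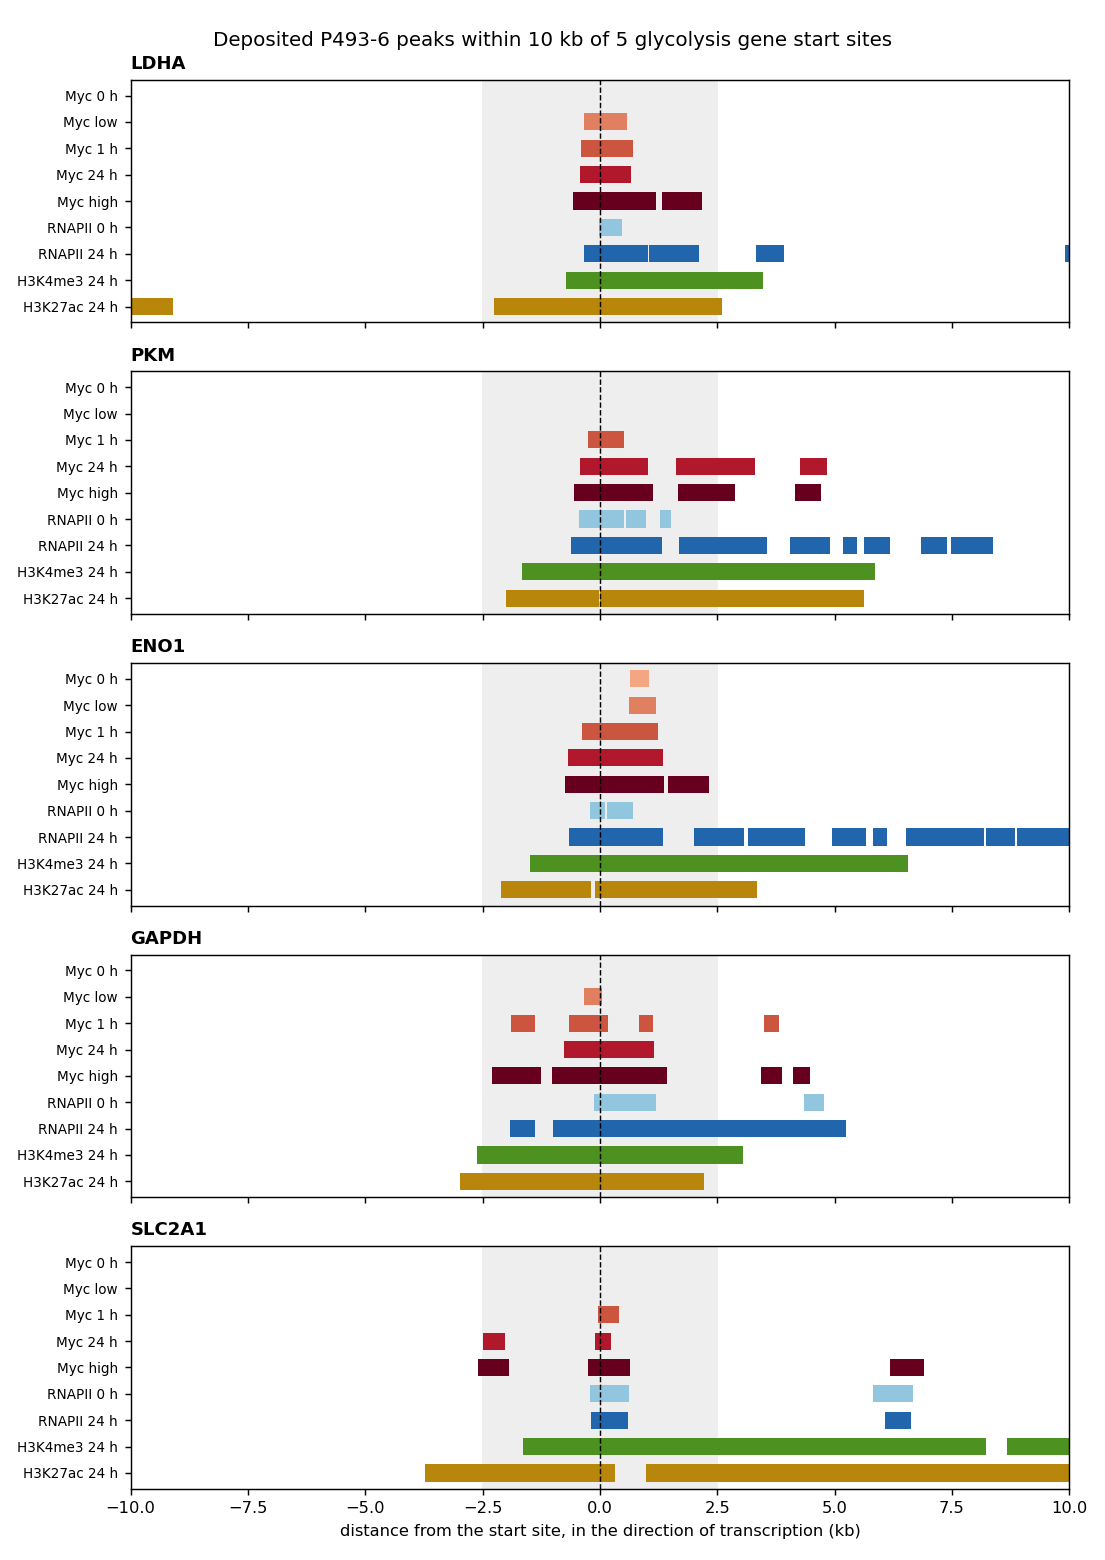
Deposited peaks within 10 kb of the 5 start sites, with the distance from the start site in the direction of transcription on the x axis (kb) and 1 row per library. Bars span peaks, the dashed line is the start site and the grey band is the 2.5 kb window. At 24 h the GAPDH Myc bar is a pair of peaks that a few bases separate. Myc peaks are more numerous and wider at high Myc than at 0 h, and RNAPII at 24 h runs along PKM, ENO1 and GAPDH but not along SLC2A1.

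ENO1 carried Myc in all 5 lists, and it was the promoter of the 5 at which Myc was found under tetracycline without OHT. The 0 h peak was 403 bp wide and lay 644 to 1046 bp downstream of the start site (chromosome 1, 8938105 to 8938507). Its score of 148.46 ranked 338 of 791, in the middle of that list, and 149 of the 424 peaks that lay on H3K4me3 of the 24 h cells. H3K4me3 was not mapped at 0 h. At low Myc the peak was 581 bp wide and ran from 617 to 1197 bp downstream, with rank 244 of 4309. Neither of these peaks reached the start site. At 1 h the peak was 1633 bp wide, from 389 bp upstream to 1243 bp downstream, and ranked 30 of 8666. It was 2026 bp wide at 24 h (rank 92 of 18257) and 2099 bp at high Myc (rank 14 of 26146, a score shared with 65 other peaks), where another peak of 885 bp stood 1448 to 2332 bp downstream. The 403 bp of the 0 h peak lay under Myc in all 5 lists.

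LDHA had no Myc peak at 0 h and a peak over the start site in the other 4 lists. It was 938 bp wide at low Myc, 1107 bp at 1 h, 1099 bp at 24 h and 1773 bp at high Myc. The widths at 1 h and 24 h were almost equal, and the peak was widest at high Myc. Within its list the peak ranked 238 of 4309, 76 of 8666, 706 of 18257 and 94 of 26146. The whole low Myc peak, from 350 bp upstream to 587 bp downstream (chromosome 11, 18415586 to 18416523), lay under Myc in all 4 lists. At high Myc a further peak of 866 bp lay 1314 to 2179 bp downstream and ranked 11861.

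GAPDH had its low Myc peak at the start site, 377 bp wide and from 342 bp upstream to 34 bp downstream (chromosome 12, 6643243 to 6643619). Its rank of 1870 of 4309 was well below those of LDHA and ENO1 in the same list. At 1 h there were 3 peaks in the window, of 504, 833 and 305 bp, and the one over the start site ranked 467 of 8666. At 24 h there were 2, of 1247 and 642 bp, the first with rank 212 of 18257. At high Myc the peak over the start site was 2442 bp wide with a score of 3108.67, rank 11 of 26146. The ENO1 peak in that list scored 3100, a value at which the caller's scores heap, so the scores do not order these 2 genes. The peak of 1050 bp upstream of the GAPDH start site ranked 6618.

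PKM had no Myc peak at 0 h or at low Myc. Its 1 h peak was 756 bp wide, from 244 bp upstream to 511 bp downstream (chromosome 15, 72523216 to 72523971), and ranked 1774 of 8666. At 24 h and at high Myc a peak of 1449 and 1693 bp lay over the start site, and a separate peak stood downstream in the gene. That downstream peak ran from 1615 to 3296 bp at 24 h and from 1674 to 2887 bp at high Myc. At 24 h it scored 940.52 (rank 487 of 18257) and the start-site peak 793.28 (rank 770). At high Myc the start-site peak scored higher, at 1383.1 (rank 1196 of 26146), against 836.19 (rank 3096) downstream. No Myc peak stood at the downstream position at 1 h.

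SLC2A1 ranked lowest of the 5 in each list in which all 5 had Myc. Like PKM it had no peak at 0 h or low Myc. The peak over the start site was 442 bp wide at 1 h, 352 bp at 24 h and 907 bp at high Myc, and its scores of 87.61, 111.09 and 225.98 ranked 7887 of 8666, 13514 of 18257 and 13239 of 26146. All 3 were below the median score of their lists. At 24 h and high Myc another peak stood upstream, 2021 to 2484 bp and 1931 to 2591 bp from the start site, with higher scores of 174 (rank 8708) and 387.92 (rank 8194). Those 2 were the peaks among the 29 Myc peaks in the 5 windows that lay outside H3K4me3 of the 24 h cells. They lay wholly within H3K27ac of the 24 h cells and had no base under RNAPII at either time. The bases under Myc in all 3 lists were chromosome 1, 43424609 to 43424890.

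**Figure D3:**
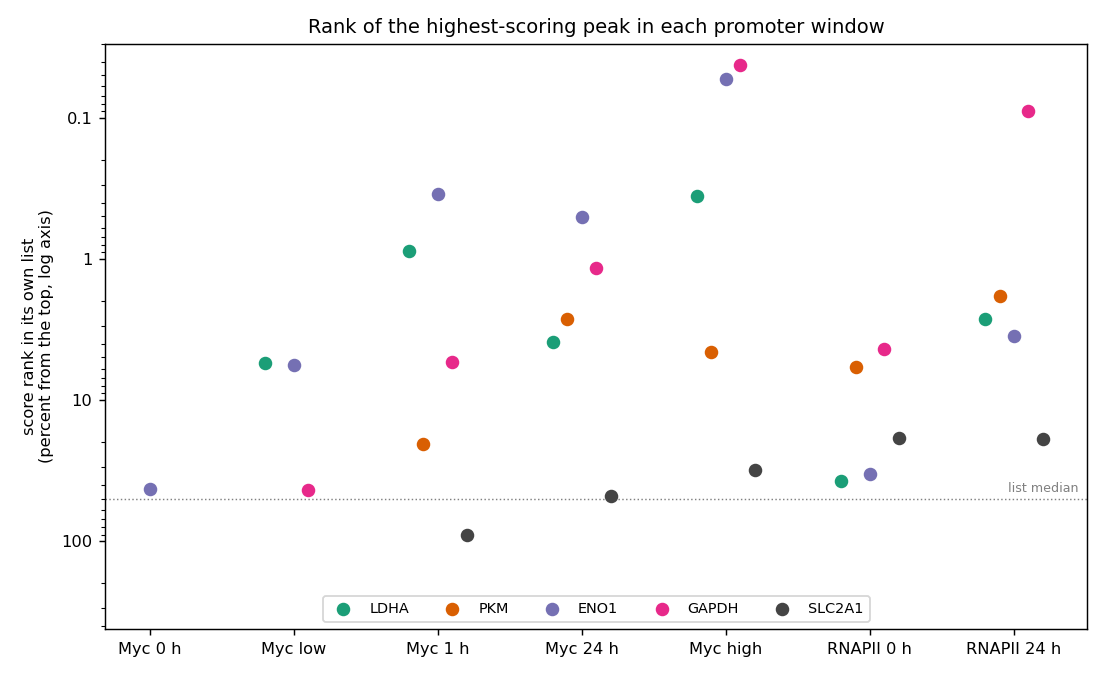
Rank of the highest-scoring peak in each promoter window within its own list, as percent from the top on a log axis (higher on the plot is a higher score), for the Myc and RNAPII lists on the x axis. Colours are genes and the dotted line is the median of a list. SLC2A1 lies below the other genes in the 1 h, 24 h and high Myc lists, and GAPDH, ENO1 and LDHA lie within the top 0.360% at high Myc. Positions in different lists cannot be read as a change or as its absence, since the lists differ in length.

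By the highest Myc score in the window, the order of the genes at 1 h was ENO1, LDHA, GAPDH, PKM and SLC2A1. At 24 h it was ENO1, GAPDH, PKM, LDHA and SLC2A1, and with the start-site peak of PKM (rank 770) in place of its downstream peak (rank 487) LDHA (rank 706) came before PKM. At high Myc GAPDH and ENO1, which the scores do not separate, came before LDHA, PKM and SLC2A1. In percent from the top of the list, the 5 genes spanned 0.346% to 91.0% at 1 h, 0.504% to 47.7% at 24 h and 0.0421% to 31.3% at high Myc. The SLC2A1 ends of the last 2 spans are its upstream peaks, and its start-site peaks were at 74.0% and 50.6%. At low Myc LDHA and ENO1, at 5.52% and 5.66%, were close together and GAPDH stood at 43.4%. Ranked among peaks on H3K4me3 of the 24 h cells alone, ENO1, LDHA and GAPDH were at 0.0763%, 0.496% and 0.0599% at high Myc. Of the 29 Myc peaks in the windows 17 covered the start site, 1 for each gene and list with Myc except ENO1 at 0 h and low Myc.

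The bases of each window under Myc were also compared between pairs of lists. At high Myc more bases were covered than at low Myc at 3 of the 3 promoters with Myc in both lists, as in 99.6% of H3K4me3-centred windows with Myc in both, and this count is no different from the background. More bases were covered at high Myc than at 24 h at 5 of 5 promoters, against 87.9% of windows. More were covered at 24 h than at 1 h at 4 of 5, against 83.4%. LDHA was the exception, with 1107 bp at 1 h and 1099 bp at 24 h. Both counts were near the background share. The ratio of high to low Myc was 9.26 for GAPDH, 5.14 for ENO1 and 2.81 for LDHA, against a median of 3.04 over the 3226 windows. From 1 h to 24 h the ratio was 3.09 for PKM, where the downstream peak was added, 1.85 for SLC2A1, 1.24 for ENO1, 1.15 for GAPDH and 0.993 for LDHA. Their median of 1.24 was below that of 1.38 over the windows. From 24 h to high Myc the medians were 1.81 over the 5 genes and 1.43 over the windows. The median coverage of the 5 promoters was 1107 bp at 1 h, 1889 bp at 24 h and 2639 bp at high Myc. Over all H3K4me3-centred windows with a Myc peak it was 511, 594 and 836 bp. No coverage is given for windows at H3K4me3 peaks scoring at least 3100, the score of all 5 genes, so these medians are not matched to them.

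**Figure D4:**
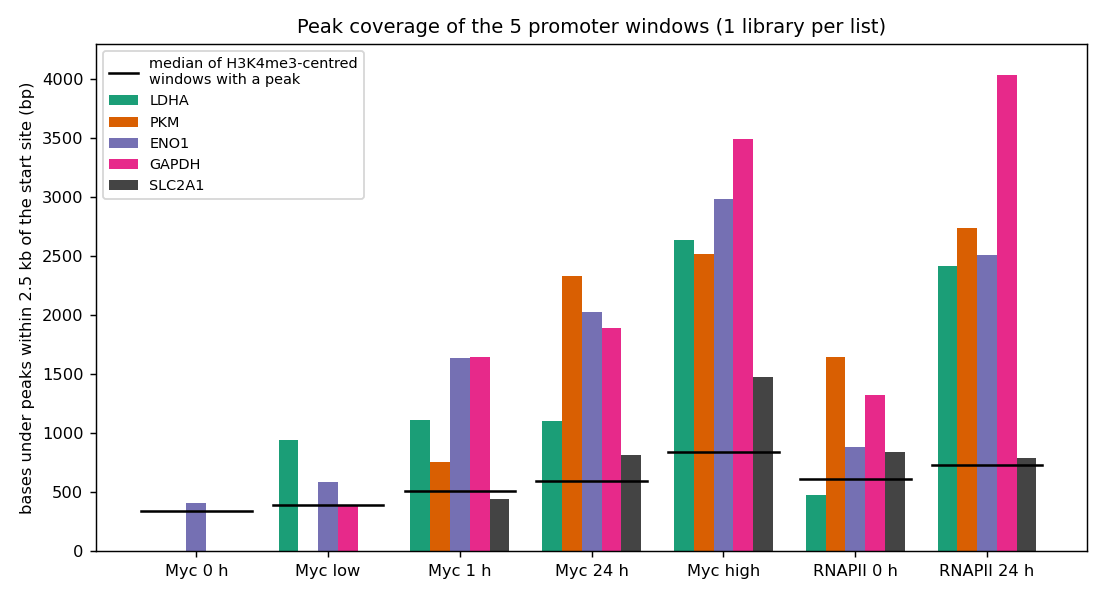
Bases under peaks within 2.5 kb of each start site (y axis, bp, from 0) in the 5 Myc and 2 RNAPII lists (x axis), with 1 bar per gene and 1 library per list. Black lines are the median of H3K4me3-centred windows with a peak in that list. From RNAPII 0 h to 24 h the bars of LDHA, PKM, ENO1 and GAPDH are higher, and that of SLC2A1 is 840 and 784 bp.

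RNAPII lay at all 5 promoters in the 0 h cells, in which tetracycline repressed the Myc transgene. It was present at 5 of 5 at 0 h, against 25.4% of H3K4me3-centred windows, and at 5 of 5 at 24 h, against 39.7%. Of windows at H3K4me3 peaks scoring at least 3100, 52.1% had RNAPII at 0 h and 82.2% at 24 h. Of windows at RNAPII peaks of the 0 h cells, 91.9% had RNAPII at 24 h. The 24 h count was thus near the share of such windows and says little about these genes in particular. Peaks that covered the start site were found at each gene at both times. At 0 h the highest-scoring peak in the window ranked 564 of 13026 for GAPDH, 763 for PKM, 2434 for SLC2A1, 4383 for ENO1 and 4911 for LDHA. Of these peaks 4 covered the start site, and that of ENO1 began 144 bp downstream of it. GAPDH and PKM had the highest RNAPII ranks of the 5, and ENO1, the gene with Myc at 0 h, was next to last.

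RNAPII covered more bases at 24 h than at 0 h at 4 of 5 promoters, against 75.1% of the 6916 windows with RNAPII at both times, so the count is near the background and the sizes are given as a description. LDHA had 474 bp under RNAPII at 0 h and 2419 bp at 24 h, a ratio of 5.10. GAPDH had 1320 and 4034 bp (3.06), ENO1 884 and 2509 bp (2.84) and PKM 1645 and 2735 bp (1.66). SLC2A1 had 840 and 784 bp, a ratio of 0.933. The median ratio was 2.84 over the 5 promoters and 1.31 over the windows, which were not limited to H3K4me3 peaks scoring at least 3100. At 24 h the highest-scoring peak ranked 22 of 24613 for GAPDH (a score of 3100, shared with 313 other peaks), 451 for PKM, 654 for LDHA, 862 for ENO1 and 4625 for SLC2A1. The 24 h RNAPII list was also the longer one, and what its length adds to the coverage was not tested.

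Along the first 10 kb downstream of the start site, RNAPII peaks covered 669 bp at ENO1 at 0 h and 8046 bp at 24 h. The same stretch of PKM had 1197 and 6374 bp, GAPDH 1605 and 5251 bp, and LDHA 463 and 2768 bp. SLC2A1 had 1478 and 1158 bp. In the 10 kb upstream the 24 h coverage was 193 to 1534 bp over the 5 genes, with the most at GAPDH. The GAPDH peak at 24 h was 6258 bp wide and ran from 1007 bp upstream to 5250 bp downstream. No share over other windows was computed for this stretch, and gene ends were not used. The stretch can thus run past the end of a gene. The GAPDH bases at 0 h include a separate peak 4354 to 4770 bp downstream.

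The 24 h cells had both active marks at all 5 promoters. H3K4me3 was present at 5 of 5, against 76.0% of windows at the RNAPII peaks of the 0 h cells. H3K27ac, a mark of active promoters and enhancers, was present at 5 of 5, against 85.8% of H3K4me3-centred windows and 99.1% of those at H3K4me3 peaks scoring at least 3100, so its presence says little about these genes in particular. A single H3K4me3 peak covered each start site, with a width of 4199 bp at LDHA, 5678 bp at GAPDH, 7522 bp at PKM, 8061 bp at ENO1 and 9856 bp at SLC2A1. By width these were in the top 10.2%, 4.08%, 1.38%, 1.02% and 0.457% of the list, whose median was 1808 bp. SLC2A1, with the lowest Myc ranks, had the widest H3K4me3 peak. All 5 had a score of 3100, which 9685 H3K4me3 peaks shared, so the score does not order them.

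The H3K27ac peaks were split near the start site at 3 of the genes. At PKM peaks of 5625 and 1994 bp met 5 to 15 bp upstream of the start site with 11 bp between them, and at ENO1 peaks of 3454 and 1917 bp were 83 bp apart. At SLC2A1 the gap was 653 bp, from 321 to 973 bp downstream, and the peak beyond it was 17131 bp wide. That gap reached into the high Myc peak, of which 63.6% lay in H3K27ac, and into the RNAPII peak at 24 h, of which 65.4% did. LDHA and GAPDH had 1 peak each over the start site, of 4857 and 5192 bp. H3K27ac covered 4348 to 4764 bp of the 5001 bp windows, with a median of 4529 bp over the 5 genes. It was 3447 bp over all H3K4me3-centred windows with a peak, which were not limited to H3K4me3 peaks scoring at least 3100.

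Myc and RNAPII met at most, but not all, of the positions. Of the 29 Myc peaks in the windows, 27 lay wholly within H3K4me3 of the 24 h cells, against 70.0% of the 58169 peaks of the 5 Myc lists. H3K4me3 covered 64.6% to 100% of each window, and the 58169 peaks were not limited to such windows. The count of 27 thus says little about Myc at these genes. Bases were shared with RNAPII at 0 h by 21 of the 29 and with RNAPII at 24 h by 27, against 32.6% and 49.5% of the 58169. Of the 43790 Myc peaks that lay on H3K4me3, 41.1% and 62.8% shared bases with them. The 29 are repeated calls at 5 promoters that all had RNAPII at both times, so they are not independent of one another. The bases under Myc in each list that had a peak were covered by RNAPII at 0 h over 100% of their length at PKM and SLC2A1, 50.5% at LDHA, 44.3% at GAPDH and 12.7% at ENO1. At 24 h they were covered over 98.5% at LDHA and 100% at the other 4. The ENO1 position bound at 0 h thus lay almost wholly outside the RNAPII peaks of the same condition, sharing 51 of 403 bp with them.

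Just outside the 2.5 kb limit, PKM had a Myc peak 4260 to 4828 bp downstream at 24 h and 4149 to 4716 bp downstream at high Myc, with ranks of 12233 and 9354. GAPDH had one 3506 to 3821 bp downstream at 1 h and 2 at high Myc, from 3435 and 4120 bp, with ranks of 25951 and 25826 of 26146. SLC2A1 had one 6186 to 6896 bp downstream at high Myc, where RNAPII peaks also stood at 0 h and 24 h. Just inside the limit lay the upstream SLC2A1 peaks, from 2021 and 1931 bp.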

How the data were processed

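The genes and windows were chosen with earlier results of these data known. The submitters' processing notes name BWA 0.6.2, SAMtools and MACS 1.4.1, without their settings. Peaks were called per library. The deposited score of each peak is the authors' value, a scaled negative log10 of the p-value as MACS writes it, at least 80.01 here and heaped at 3100. Per the series' design text, the P493-6 Myc and RNAPII lists shared an input of another series, which was not used here. For the high Myc sample the notes name the mouse build mm9. Its peaks on chromosome 1 ran to position 249219825, so the list was read as hg19 like the others. Peak numbers were missing in 3 lists (59 at 1 h, 2 in RNAPII 24 h and 4 in H3K4me3), and no pair of lists was identical (0 pairs).

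Peaks were counted in a window when 1 bp overlapped. Background windows were centred on H3K4me3 peaks, not on annotated start sites, and may overlap one another. Their shares have exact 95% binomial half-widths of at most 1.03 points, which cover counting error only. Read depth is unknown. The rule named all 5 genes, in every list. No test was made, since each condition had 1 library. The planned gene-start background, pathway and marker lists and motifs were not analysed here. Python 3.11.15, numpy 2.4.6 and pandas 2.3.3 were used. Window overlaps were tested on simulated data (0 wrong of 5000 windows per list) and gave the counts of bedtools 2.31.1 in 9 of 9 lists.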

Additional observations from a re-analysis of the deposited data

How the results depend on the processing

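The number of promoters with a peak stayed within 1.5 times its reported value in all 9 lists with windows of 1 kb or 5 kb and with the peaks scoring no less than the median of their list, although SLC2A1 was lost at 1 h under the median. With equal numbers of highest-scoring peaks, 791 per Myc list, Myc was left at 3 promoters at 1 h and 3 at high Myc (LDHA, ENO1 and GAPDH in both). It was left at 2 at low Myc (without GAPDH) and at 4 at 24 h (without SLC2A1). That choice keeps a smaller share of the longer lists. Asking the peak to cover the start site left 0 promoters with Myc at 0 h and 2 at low Myc, and asking its centre to lie within 2.5 kb left 3 with H3K4me3, as the wide peaks of ENO1 and SLC2A1 are centred further downstream. The background shares depended on the windows. At RNAPII peaks of the 0 h cells they were 4.30%, 18.9%, 39.8%, 58.7% and 65.9% for Myc at 0 h, low Myc, 1 h, 24 h and high Myc, 91.9% for RNAPII at 24 h and 79.3% for H3K27ac. At H3K4me3 peaks scoring at least 3100, a choice made after seeing the data, they were 3.22%, 21.7%, 45.9%, 71.1% and 88.0% for Myc, 52.1% and 82.2% for RNAPII at 0 h and 24 h, and 99.1% for H3K27ac. Taking the widest peak in place of the highest-scoring one moved 2 of 39 ranks and ranking by width moved 35. Ranking among peaks on H3K4me3 alone moved 24 ranks and left 13 the same. Some of these moves were small, as for GAPDH at low Myc, from 43.4% to 45.7% from the top. A moved rank thus need not have changed by more than 1.5 times. Other moves were large. ENO1 in H3K27ac went from 0.223% to 42.5% when ranked by width and to 15.0% with its widest peak. A background of annotated gene starts was planned and not run, since no hg19 annotation was used here. No paired analysis was possible because each P493-6 condition had 1 library. Unknown read depth and single libraries limit all comparisons between conditions.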
